A study of Mus musculus with 4 samples.

Results

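Shared, balanced acetylated regions at gene ends are the stretches of H3K27ac, the acetylation of lysine 27 on histone H3, that both peak lists of the series held to a similar length beside a protein-coding gene. They were chosen by covered length and position: peaks of both lists were merged wherever they touched, and a merged region was kept if it held peaks of both lists, if the bp covered by the control list divided by the bp covered by the BN1 list lay between 0.5 and 2, and if it came within 1000 bp of either end of a RefSeq gene. The rule kept 6153 of 34938 merged regions (17.6%). They made up 55.4% of the 11112 regions with peaks of both lists. Because presence in both lists, ratio and position selected them, those values are given as a description only.

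The series compared H3K27ac between bone marrow cells of C57BL/6 mice, each group as 1 library profiled by fanChIP, a native chromatin immunoprecipitation assisted by fractionation. Both groups are labelled as CD45.2-positive, cKit-positive cells, and they differ by the BRD9-NUTM1 fusion (BN1), which the control does not carry. BRD9 is a reader of acetylated histones within BAF complexes, which move nucleosomes, and NUTM1, normally made in the testis, recruits the acetyltransferase p300. How the fusion was brought into the cells, its promoter, the number of animals and their age were not given in the sources used here, and the extract protocol names BN1 cells for the control library too. Peaks inside the control-labelled list are named BRNU and those inside the BN1-labelled list are named BM, so each list is called by its label (the control-labelled and the BN1-labelled list) and every direction is that of the labels. An exchange of the labels cannot be told apart from these files, and it would turn every control and BN1 direction given here, that of the marker genes included. Where 2 lengths or values follow each other below, the first is that of the control-labelled list. Each group had 1 library, so there was no replicate error to test against; no p-values are given, and all differences describe these libraries.

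The control-labelled list held 28343 peaks over 31.0 Mb and the BN1-labelled list held 19148 peaks over 19.1 Mb, a covered length 1.62-fold longer in the former. Read depth is unknown, and it limits which weak regions could enter either list. Of 44 defining markers of blood and stromal cell types, only Ptprc (CD45, carried by all leukocytes) had a shared, balanced end region. Over all protein-coding genes the share was 32.8%. Kit, the gene of the receptor by which both groups are labelled, had no region of either list at an end. At their ends, 4 of 5 monocyte and macrophage and 2 of 5 progenitor markers (Cd34 and Meis1) had a region in the control-labelled list only. So did Cd4 of the T and NK cell and Pf4 of the megakaryocyte markers. In the BN1-labelled list only, 4 of 5 neutrophil, 4 of 5 B cell and 3 of 5 erythroid markers had one, and Gp9 of the megakaryocyte markers. Over all protein-coding genes, 6.09% had one of the control-labelled list only and 3.03% one of the BN1-labelled list only. The part of cell type in the membership of a region was not tested.

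H3K27ac is written by p300 and its relative CBP and lies on nucleosomes beside active promoters and enhancers. The transcription start itself is usually kept free of nucleosomes, so that the mark flanks it. Many promoters of genes used in every cell lie in CpG islands, stretches rich in the dinucleotide CG that usually stay unmethylated and carry sites for Sp and Klf factors, NF-Y, ETS factors, NRF1 and YY1.

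Promoter sequences of 7 genes whose start lay in such a region are printed here. Each is the 250 bases before the start, read 5′ to 3′ in the direction of the gene, from RefSeq's promoter table for GRCm38.p6. Capitals mark every match, on either strand, to the 15 motifs searched, which are spelled out with their counts further on. Positions count back from the start, with the base just before it at -1. The first set holds genes of general cell functions. Trp53inp2 (an autophagy regulator, chr2:155381606-155381855, plus strand) was among the 10 regions strongest in both lists. Cpsf7 (a factor of pre-mRNA 3′ end cleavage, chr19:10524994-10525243, plus strand), Gtf2e1 (a subunit of the general factor TFIIE, chr16:37539790-37540039, minus strand) and Pgam1 (a glycolytic mutase, chr19:41911621-41911870, plus strand) are shown for their ETS, YY1 and NRF1 matches.
Trp53inp2: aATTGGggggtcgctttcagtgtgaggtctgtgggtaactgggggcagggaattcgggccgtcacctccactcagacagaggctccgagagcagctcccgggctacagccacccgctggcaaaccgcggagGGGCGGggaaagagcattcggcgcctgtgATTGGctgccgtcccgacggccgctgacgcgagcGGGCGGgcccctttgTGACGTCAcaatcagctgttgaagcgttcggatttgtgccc
Cpsf7: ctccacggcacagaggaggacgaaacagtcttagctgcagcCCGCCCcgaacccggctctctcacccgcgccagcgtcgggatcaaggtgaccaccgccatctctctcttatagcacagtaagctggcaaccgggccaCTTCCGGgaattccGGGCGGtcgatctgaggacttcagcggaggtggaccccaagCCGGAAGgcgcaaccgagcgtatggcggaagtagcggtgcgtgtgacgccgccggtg
Gtf2e1: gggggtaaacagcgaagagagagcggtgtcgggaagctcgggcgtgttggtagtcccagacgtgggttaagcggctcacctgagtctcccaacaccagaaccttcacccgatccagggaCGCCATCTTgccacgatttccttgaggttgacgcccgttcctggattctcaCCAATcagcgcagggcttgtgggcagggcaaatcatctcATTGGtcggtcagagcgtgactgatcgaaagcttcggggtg
Pgam1: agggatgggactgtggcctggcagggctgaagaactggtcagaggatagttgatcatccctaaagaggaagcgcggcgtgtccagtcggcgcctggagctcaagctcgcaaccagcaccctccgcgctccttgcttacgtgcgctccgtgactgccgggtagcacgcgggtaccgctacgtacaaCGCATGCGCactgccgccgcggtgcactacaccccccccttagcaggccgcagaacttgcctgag

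The Trp53inp2 promoter held a cyclic AMP response element (CRE) at -41, with CCAAT boxes at -249 and -90 and GC boxes at -119 and -56. Cpsf7 had ETS matches at -112 and -57, Gtf2e1 a YY1 match at -131 with CCAAT boxes at -80 and -41, and Pgam1 an NRF1 match at -65. The second set holds genes of the chromatin machinery that the fusion touches and 1 blood gene. Brd9 (chr13:73937561-73937810, plus strand) encodes the fusion's bromodomain partner, Ep300 (chr15:81585964-81586213, plus strand) encodes p300, and Ptprc (chr1:138175127-138175376, minus strand) encodes CD45.
Brd9: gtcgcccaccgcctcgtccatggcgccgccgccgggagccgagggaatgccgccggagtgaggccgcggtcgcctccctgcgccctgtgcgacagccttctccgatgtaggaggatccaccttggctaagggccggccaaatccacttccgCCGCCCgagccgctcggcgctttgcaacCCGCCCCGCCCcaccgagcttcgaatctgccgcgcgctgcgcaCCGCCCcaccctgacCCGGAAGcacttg
Ep300: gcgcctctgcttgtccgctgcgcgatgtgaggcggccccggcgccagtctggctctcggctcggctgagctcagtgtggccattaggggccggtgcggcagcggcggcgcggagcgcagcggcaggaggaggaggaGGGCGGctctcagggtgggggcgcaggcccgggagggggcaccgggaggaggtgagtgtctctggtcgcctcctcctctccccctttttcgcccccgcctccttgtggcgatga
Ptprc: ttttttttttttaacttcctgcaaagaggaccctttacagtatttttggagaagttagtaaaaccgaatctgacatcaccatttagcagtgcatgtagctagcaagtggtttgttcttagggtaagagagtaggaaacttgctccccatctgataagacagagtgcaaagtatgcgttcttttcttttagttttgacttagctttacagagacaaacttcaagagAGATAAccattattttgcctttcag

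Where a gene had several listed starts in the region, the one with the lowest coordinate was used (as at Brd9), and at Ptprc the 1 of 2 starts that lay inside the region. The Ptprc region ends at base 138175253, so the part of its printed sequence furthest before the start lies outside the region. The Brd9 promoter was 72.4% G and C, with 4 GC boxes (at -99, -71, -66 and -28) and an ETS match at -13. That of Ep300 was 73.2% G and C with a GC box at -114. Ptprc stood apart with 36.8% G and C, a CpG observed-to-expected ratio of 0.24 against 1.04 for Brd9, and a GATA match at -25 as its only match.

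Most merged regions were held by a single list, and these lay mainly away from gene ends. At gene ends the order turned: 6153 regions were shared and balanced, 2135 were in the control-labelled list only, 1037 in the BN1-labelled list only, 1015 were shared but longer in the control-labelled list and 262 were shared but longer in the BN1-labelled list. Of the 8539 shared, balanced regions, 72.1% lay at a gene end (95% exact binomial interval 71.1 to 73.0, which covers counting error only), and of the 7430 shared regions at gene ends 82.8% were balanced.

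**Figure D1:**
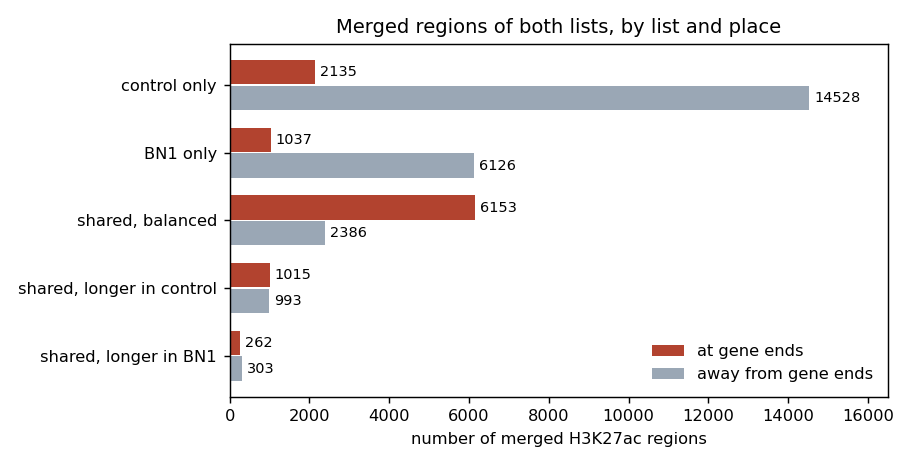
Number of merged H3K27ac regions (horizontal axis) in 5 classes by list and balance (vertical axis), with regions at gene ends in red and those away from them in grey. Shared, balanced regions are the class with far more regions at gene ends (6153) than away from them (2386); shared regions longer in control lie about evenly (1015 and 993), and the other 3 classes lie more often away.

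The shared, balanced end regions took 6474 peaks (22.8%) of the control-labelled list and 6475 (33.8%) of the other. They covered 31.8% and 46.6% of the bp of the respective list. Among the 1000 peaks with the highest −log10 q of each list, 67.4% and 82.1% lay in them. The strongest calls of either library were thus mostly in these regions. A region had to hold a called peak of both lists, so the rule itself can favour strong peaks.

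Single peaks were the rule: 5596 regions (90.9%) held exactly 1 peak of each list. The median merged length was 1528 bp (quartiles 1053 and 2134), from 270 to 14720 bp. The control-labelled list covered a median of 1400 bp of a region and the BN1-labelled list 1267 bp. Within the limits of 0.5 and 2, the ratio had a median of 1.10 (quartiles 0.93 and 1.35), and 3957 regions (64.3%) were longer in the control-labelled list, 2188 in the BN1-labelled list and 8 equal. Set against each list's whole covered length, the order reversed: the median ratio was 0.68, and 649 regions (10.5%) were longer in the control-labelled list. On that scale 830 regions fell at or below 0.5, outside the limits.

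**Figure D2:**
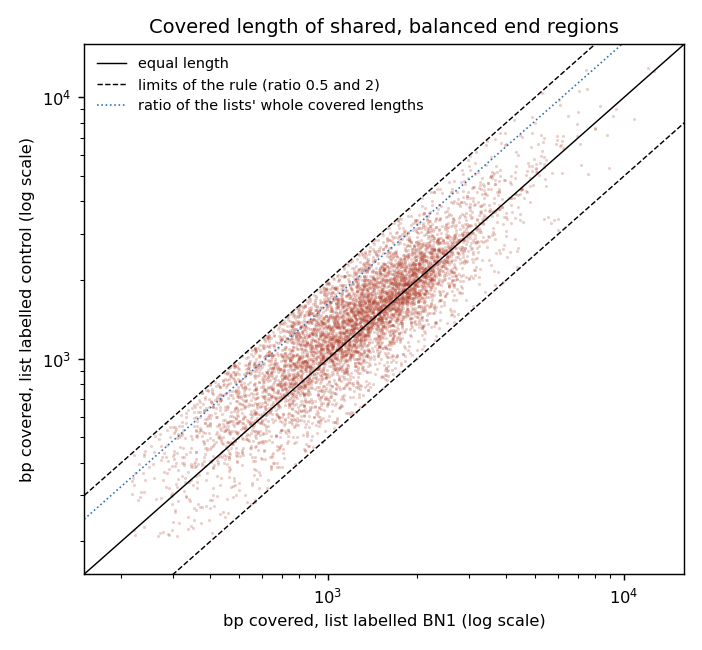
Covered bp of each of the 6153 regions in the BN1-labelled list (horizontal, log scale) and in the control-labelled list (vertical, log scale), 1 point per region. The points lie between the dashed limits by construction, and most lie below the dotted line of the lists' overall 1.62-fold difference.

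The limits cut through a continuous range of ratios. Just inside the lower limit stood a region at Fxyd5 (283 bp in the control-labelled list and 565 bp in the BN1-labelled list) and one at E2f8 (936 and 1865 bp). Just outside stood Tap2 (735 and 1470 bp, a ratio of exactly 0.5) and Plscr3 (749 and 1501 bp). At the upper limit, Bet1 (797 and 399 bp) and Pole4 (2323 and 1163 bp) were kept, and Mpp7 (1616 and 808 bp) and Sft2d2 (1901 and 950 bp) were not.

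Fold enrichment, the authors' own value at the summit, was compared only within its list, as the percentile of a region's strongest peak among all peaks of that list. The median percentile was 79.7 in the control-labelled list and 78.6 in the BN1-labelled list. Shared end regions longer in control had 79.0 and 46.0, so in the control-labelled list they ranked about as high. Those longer in BN1 had 35.7 and 66.8. Shared, balanced regions away from gene ends had 64.5 and 58.9, and end regions of a single list had 40.3 (control) and 33.8 (BN1). Needing a called peak in both lists can itself raise the ranks of shared regions over those of a single list. Of the shared, balanced end regions, 2774 (45.1%) lay at percentile 75 or above in both lists, and 425 (6.91%) lay under percentile 50 in both. The percentiles of both lists ran together across regions (Spearman's rho 0.67 over 6153 regions, a description, since both libraries share the regions and longer regions ranked higher).

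The rule did not use summits, but merging touching peaks of limited length ratio bounds how far apart they can lie, most tightly in short regions. The strongest summits of both lists were a median of 67 bp apart (quartiles 25 and 197), and in 69.9% of regions (interval 68.7 to 71.0) they lay within 150 bp of each other. The share was 62.3% (60.3 to 64.3) in shared, balanced regions away from gene ends and 64.6% (61.9 to 67.2) in the unbalanced shared regions at gene ends. It fell with length, from 78.4% of the regions up to 1056 bp long to 57.9% of those of 2136 bp or more, taken over the 4963 regions near a start.

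Zfp869, a zinc finger gene, came first by the lower of its percentiles in the 2 lists, though it was first in neither list alone. Its region was short, with 759 and 806 bp, and its fold enrichment was at percentile 99.97 and 99.98. Cd164, which encodes a sialomucin of blood progenitors and many other cells, had 1730 and 1869 bp. The 2 lengths were further apart at Trp53inp2, with 2015 and 1275 bp. Zc3h4, of a complex that ends unproductive transcription, had 5396 and 5362 bp, and Zfp335, a zinc finger regulator, 3438 and 3404 bp. A region reaching the ends of Mief1 (mitochondrial division) and Atf4 (the main transcription factor of the integrated stress response) had 3550 and 3715 bp. The others of the strongest 10 lay at Prr14 and Fbrs, at Amdhd2 and Atp6v0c, at Efcab2 and at Fbxl14, the last with 2912 and 2515 bp. None of the strongest 10 had a ratio beyond 1.65 or below 0.81.

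Either end of a gene could admit a region, and it was almost always the start. The promoter table gave a start and strand for 17492 genes (79.9%), which placed 5125 of the regions. Of these, 5046 (98.5%, interval 98.1 to 98.8) came within 1000 bp of a start and 79 (1.54%) touched a 3′ end only. A 3′ end alone was touched by 20.6% of the end regions of the control-labelled list only and 21.0% of those of the BN1-labelled list only, and by 4.35% and 7.37% of the shared regions longer in control and longer in BN1. The intervals of these shares (18.7 to 22.6, 18.2 to 23.9, 3.06 to 5.97 and 4.27 to 11.7) did not reach that of the balanced regions (1.22 to 1.92). For the other 1028 regions the table held no start of a gene at them, and they were not placed. A region beside a gene without a listed strand was counted only if it came near some listed start, which can raise the share at a start. Length also differs: the median was 1528 bp for balanced end regions, against 605 bp (control only) and 523 bp (BN1 only). Longer regions come near a start more easily.

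The regions extended mostly into the gene. In 4000 regions that held a start without a second, opposite start nearby, a median of 597 bp lay before the start and 959 bp after it, and 75.4% reached further after than before (interval 74.1 to 76.8). Over the 4382 regions near such a start, the strongest summit lay a median of 165 bp downstream in the control-labelled list and 160 bp downstream in the BN1-labelled list. It was more than 100 bp downstream in 67.5% and 70.6% of regions, within 100 bp of the start in 12.6% and 11.8%, and more than 100 bp upstream in 19.9% and 17.6%. This was not particular to balanced regions. Shared regions longer in control had medians of 177 and 165 bp downstream, with 19.1% and 17.0% of summits more than 100 bp upstream. Those longer in BN1 had 157 and 174.5 bp, with 25.3% and 16.5% upstream. Single-list end regions were more spread, with 34.4% (control only) and 30.2% (BN1 only) of summits more than 100 bp upstream.

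**Figure D3:**
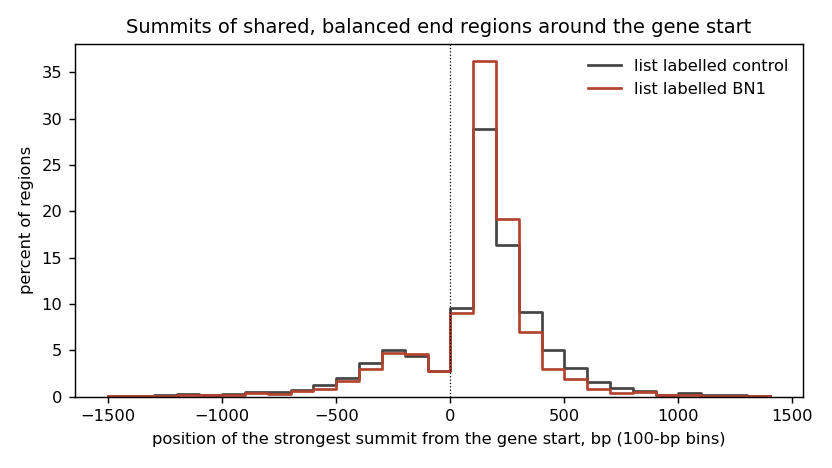
Share of regions (vertical, percent) by the position of the strongest summit from the gene start (horizontal, 100-bp bins read in the direction of the gene), for both lists over 4382 regions without a divergent pair. Both lists peak in the bin from 100 to 200 bp downstream (28.8% control, 36.2% BN1), dip at the start and have a small rise upstream.

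Divergent pairs, 2 genes on opposite strands with starts within 1000 bp of each other, shared a region in 581 of 4963 cases (11.7%, interval 10.8 to 12.6). The share was 7.58% (5.81 to 9.69) in shared regions longer in control, 7.61% (4.32 to 12.2) in those longer in BN1, 5.81% (4.58 to 7.25) in regions of the control-labelled list only and 3.78% (2.38 to 5.67) in those of the BN1-labelled list only. Only the interval of the class longer in BN1 reached that of the balanced regions. Brd9 was such a case, its region also reaching Trip13, and so were Cpsf7 with Sdhaf2 and Gtf2e1 with Rabl3.

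Counted by gene, 7188 of 21887 protein-coding genes (32.8%) had a shared, balanced region at an end and 11336 (51.8%) had no region of either list. A further 1332 had a region of the control-labelled list only, 664 of the BN1-labelled list only and 1308 an unbalanced shared one. These shares are the background for the gene groups below. Of the regions, 4774 served 1 gene, 1309 served 2 genes and 68 served 3, so neighbouring genes are not independent. The median gene length was 21.8 kb with such a region, 20.5 kb and 21.5 kb with a region of the control-labelled or the BN1-labelled list only, and 12.4 kb with none, so length went with having any region.

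Genes of the basic machinery of the cell mostly had one. Over 20 lists of machinery and chromatin genes, 520 of 633 genes (82.1%) had a shared, balanced end region against 32.8% of all genes. Of the 633, only 32 had no region of either list, against 51.8% of all genes. The gap therefore lies also in having any region, not in sharing or balance alone. These lists were written with earlier results of these data known, so their shares are descriptions without a test. Some counted regions cannot be assigned to the listed gene. The strongest regions of Med29 and Stip1 also reached Zfp36 and Fermt3 and did not come within 1000 bp of the Med29 and Stip1 starts. Other listed genes shared their region with a neighbour, such as Kif20a with Brd8 and Rpa3 with Umad1. In pre-mRNA 3′ end cleavage, the exosome and nonsense-mediated decay, which trim or destroy RNA, all 33 of 33 listed genes had one. Cpsf7 had 1696 and 1543 bp, Cpsf2 1910 and 2653 bp, and Smg9 2083 and 1688 bp. The spliceosome, which removes introns, had 38 of 40, the exceptions being Snrpa and Sf3b4, both unbalanced. Its strongest was Sf3b1 (1883 and 2229 bp), the branch-point binding subunit. Aminoacyl-tRNA synthetases, which charge tRNAs, had 21 of 23, again with unbalanced regions at the exceptions, Sars and Tars.

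Protein synthesis, folding, traffic and turnover had similar shares. Translation factors had 34 of 39, led by Eif5 (2855 and 3447 bp), which activates GTP hydrolysis in the initiation complex. Cytosolic chaperones had 20 of 23, led by Hspa4 (2905 and 2663 bp). The COPI and COPII vesicle coats had 18 of 20, led by Sec24c (1465 and 828 bp), and the exceptions Copz2 and Sec24d had no region in either list. Cullins and ubiquitin enzymes had 29 of 34, and the proteasome 27 of 32, led by Psmb4 (1517 and 1357 bp). The proteasome's regions were short, with a median of 1192 bp.

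Energy metabolism divided by pathway. Respiratory complex I had 29 of 36 genes and the citrate cycle 17 of 20, the latter led by Sdhb (1480 and 1630 bp). Glycolysis had 5 of 18 (27.8%), close to the share of all genes (32.8%). Another 8 glycolytic genes had a shared but unbalanced region, each longer in the control-labelled list: Gapdh had 6201 and 1495 bp, Pkm 4418 and 1333 bp, and Aldoa 6602 and 2346 bp. These came out on the side on which most unbalanced genes lie (1054 of 1308 have only regions longer in that list). With lengths set against each list's whole covered length, 44.4% of the glycolytic genes had a balanced region against 32.0% of all genes, and the regions of Gapdh, Hk2, Pkm and Tpi1 were still above a ratio of 2 (2.56 at Gapdh and 2.04 at Pkm). The 5 glycolytic genes with a balanced region were Pgam1, Pfkm, Pfkp, Hk3 and Aldoc, the last with 328 and 484 bp.

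Genes of transcription and chromatin also stood above the background. RNA polymerase II and its general factors had 40 of 50 (Gtf2a1, 4299 and 3401 bp), Mediator 24 of 30 (Med16, 1402 and 940 bp), nucleoporins 18 of 25 (Nup205, 1338 and 1089 bp), and histone methyltransferases and demethylases 32 of 37 (Eed, a Polycomb subunit, 2164 and 1771 bp). Histone acetyltransferases and deacetylases had 23 of 31, led by Kat5 (1875 and 2568 bp), the catalytic subunit of the Tip60 complex. Among BAF subunits, p300, CBP and BET readers, 25 of 32 had one. Ep300 had 2748 and 2546 bp, Crebbp (CBP) 2072 and 2619 bp, and Smarca4 (the BAF ATPase BRG1) 2104 and 2761 bp. Brd9 had 1296 and 1720 bp, with summits 120 and 107 bp downstream of its start. Nutm1, the fusion's other partner, had no region at its own ends in either list.

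Cell division genes had 28 of 40 in DNA replication, 28 of 35 in DNA repair and 31 of 35 in mitosis. Rpa3, of the single-strand DNA binding complex, had 1564 and 1115 bp. Kif20a, a kinesin of cytokinesis, had 1148 and 1178 bp. In replication 4 of the 5 unbalanced genes were longer in the BN1-labelled list, whereas across all genes most unbalanced ones were longer in the other list.

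Immediate early and AP-1 genes, which answer signals within minutes, had 16 of 24 (66.7%) and long regions, with a median of 3484 bp against 1587 bp over all genes with a shared, balanced end region. Fos had 3715 and 3400 bp, Junb 7888 and 6923 bp, Dusp1 3556 and 2593 bp, and Zfp36, an mRNA decay factor, 12582 and 12603 bp. Jund was the other way round from most, with 3410 and 5963 bp. Among the others, 7 had an unbalanced region, each longer in the control-labelled list, such as Jun (4918 and 2244 bp) and Myc (4443 and 1808 bp). Per whole covered length 79.2% of the list was balanced.

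Genes that mark 1 blood lineage rarely had a shared, balanced region. Over 8 lineage lists, 18 of 151 genes (11.9%) had one, while 36 had a region of the BN1-labelled list only, 16 of the control-labelled list only and 67 none. The stem and progenitor list had 5 of 22, all transcription factors but for the receptor Cd27: Tal1 (2001 and 2458 bp), Lyl1 (5215 and 4892 bp), Runx1 (3182 and 2685 bp) and Hhex (3114 and 2220 bp). Among monocyte and macrophage genes 6 of 20 had one, near the background (and above it, 40.0% against 32.0%, per whole covered length). They were Spi1 (PU.1, the master factor of myeloid cells, 5458 and 4878 bp), Irf8 (1005 and 738 bp), Cd68, Lyz2, Itgam and Tlr2. Several of these regions cannot be assigned to the listed gene: that of Cd68 also reached Mpdu1 and Eif4a1, that of Lyl1 also Trmt1 and Nfix, and that of Cd27 also Tapbpl, without coming within 1000 bp of the Cd27 start.

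The remaining lineage lists held few. Camp, a neutrophil granule peptide, was the 1 of 20 in its list and was weak, with 530 and 562 bp at percentiles 38.3 and 33.8. B lymphoid genes had Cd37 (2081 and 2711 bp), Cd72 and Il7r (784 and 428 bp). Tfrc, the transferrin receptor, was the 1 of 20 in the erythroid list (713 and 1183 bp), and Itgb3 and Selp were those of the platelet list. The stronger Selp region was not near the Selp start and also reached F5, so it cannot be assigned to Selp. A second one, with 490 and 407 bp, lay at the 3′ end of Selp and reached no other gene. The lists of T and NK cells, mast cells, stroma and other tissues had none of 20, 12, 16 and 22. Ptprc had 1476 and 1033 bp, with summits 822 and 837 bp downstream of its start. Actb had 7097 and 5923 bp.

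**Figure D4:**
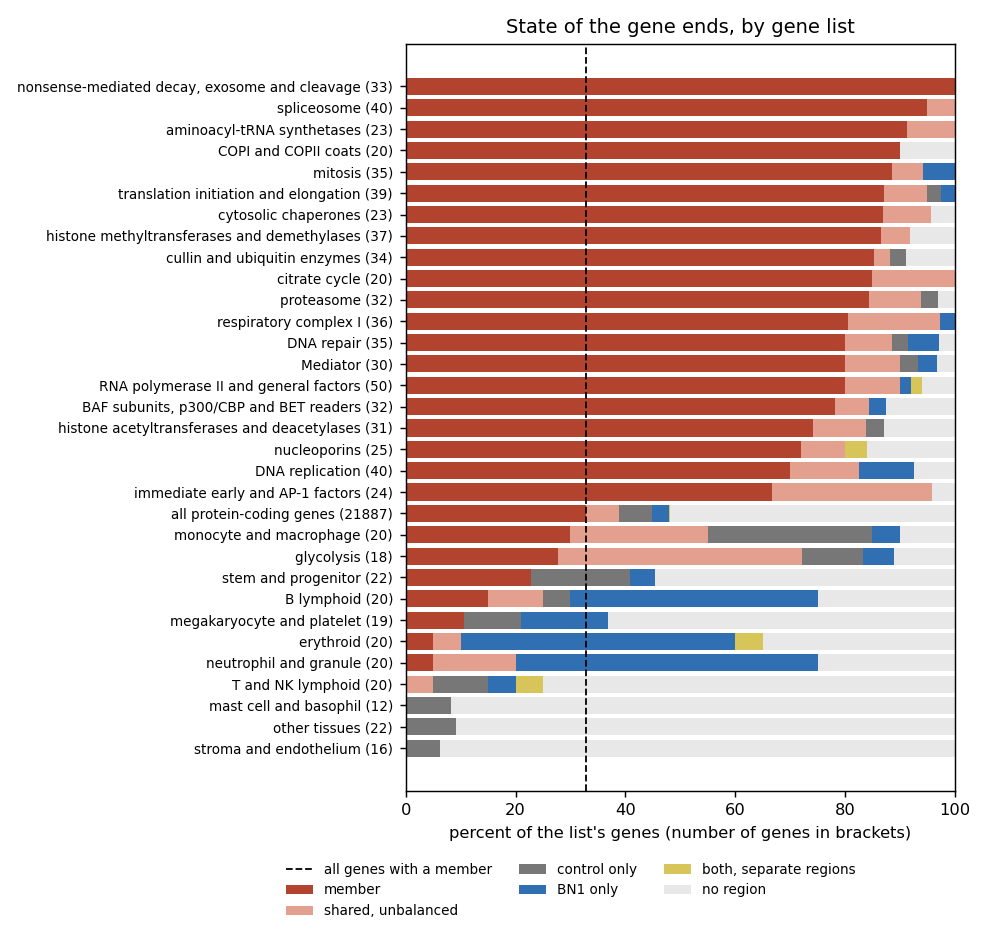
Percent of each list's genes (horizontal) by the state of their end regions (colours), for 31 lists and all protein-coding genes (vertical, number of genes in brackets), with the dashed line at the 32.8% of all genes that had a shared, balanced end region. The machinery and chromatin lists other than glycolysis run from 70.0% to 100%, and the lists of single lineages lie at or under 30.0%.

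The promoters of these genes were rich in CpG, a property the rule did not use. Windows of 300 bases (250 before to 50 after the start) were called CpG-rich with at least 50% G and C and a CpG observed-to-expected ratio of at least 0.6. Of 6545 windows within 1000 bp of a shared, balanced region, 80.0% were CpG-rich (interval 79.0 to 81.0), against 45.1% of all 21263 windows. The share was 70.5% (67.7 to 73.1) at unbalanced shared regions, 56.7% (53.8 to 59.7) and 49.3% (44.9 to 53.8) at regions of the lists labelled control only and BN1 only, and 22.5% (21.7 to 23.2) with no region. Conversely, 54.6% of the 9600 CpG-rich windows lay at a shared, balanced region, and 11.2% of the 11663 other windows. Windows of alternative starts and of divergent pairs overlap, so windows are not independent.

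Motif matches are given first against all windows and against those with no region. Higher than both were the GC box of Sp and Klf factors (GGGCGG, 69.8% of windows against 46.2% of all and 30.0% of those with no region), the ETS site (CCGGAAG, 24.7% against 11.6% and 3.86%), the NRF1 site (GCGCATGCG, 4.95% against 2.35% and 0.79%), the YY1 site (AAGATGGCG, 4.48% against 1.83% and 0.42%), the CRE (TGACGTCA, 4.19% against 2.23% and 1.21%) and the E-box (CACGTG, 10.9% against 7.84% and 5.62%). The palindrome CTCGCGAG (2.69% against 1.24% and 0.47%) and the ZNF143 site (ACTACAATT, 0.86% against 0.51% and 0.27%) were rarer but went the same way. About equal over all windows were the CCAAT box of NF-Y (CCAAT, 39.0% against 38.2% and 37.7%) and the PU.1 site (GAGGAAGT, 3.19% against 3.13% and 2.84%).

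Lower than both were the TATA box (TATAAA, 5.79% against 12.6% of all windows and 17.6% of those with no region), the AP-1 site (TGANTCA, 3.74% against 6.99% and 9.03%), the GATA site (AGATAA, 5.21% against 9.65% and 12.9%), the RUNX site (TGTGGT, 11.0% against 15.0% and 17.3%) and the C/EBP site (TTGCNNAA, 7.30% against 10.2% and 11.9%). Both strands were searched with exact letters, and the PU.1 and ETS sites share the letters GGAAG, so they can overlap. A match is a run of letters, not a bound site.

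Most of these shares were not particular to the shared, balanced regions. At unbalanced shared regions, which are the most alike, 11 of the 15 motifs had overlapping intervals, among them the GC box (66.6%), the NRF1 site (4.08%), the E-box, the TATA box (6.65%), the AP-1 site (4.26%), the GATA site (5.32%) and the C/EBP site (7.27%). The intervals were apart for the ETS site (interval 15.8 to 20.4, against 23.7 to 25.8), the YY1 site (2.13% against 4.48%), the CRE (2.48% against 4.19%) and the RUNX site (13.9% against 11.0%). Against regions of the control-labelled list only, the intervals overlapped for the GATA site (5.25%), the RUNX site (11.9%), the TATA box and the ZNF143 site, among others.

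Base composition moves with these shares. Within CpG-rich windows the GC box was as frequent at shared, balanced regions (77.1%) as at starts with no region (76.2%), and intervals also overlapped for the E-box (11.9% and 10.6%), the TATA box (4.35% and 4.87%), the GATA site (3.53% and 3.68%), the AP-1 site (3.02% and 4.05%) and the ZNF143 site (0.74% and 0.30%). The ETS site still differed within CpG-rich windows, with 27.3% against 8.21%, as did the YY1 site with 5.16% against 1.11%, the NRF1 site with 5.71% against 2.49% and the CRE with 4.75% against 2.30%. The palindrome had 3.21% against 1.67%. Motifs level over all windows were higher there: the CCAAT box had 38.4% against 31.2% and the PU.1 site 2.79% (2.36 to 3.27) against 1.49% (1.06 to 2.02). Motifs lower over all windows turned: the RUNX site had 9.68% (8.89 to 10.5) against 7.24% (6.29 to 8.29), and the C/EBP site 6.19% against 4.87%, with overlapping intervals.

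**Figure D5:**
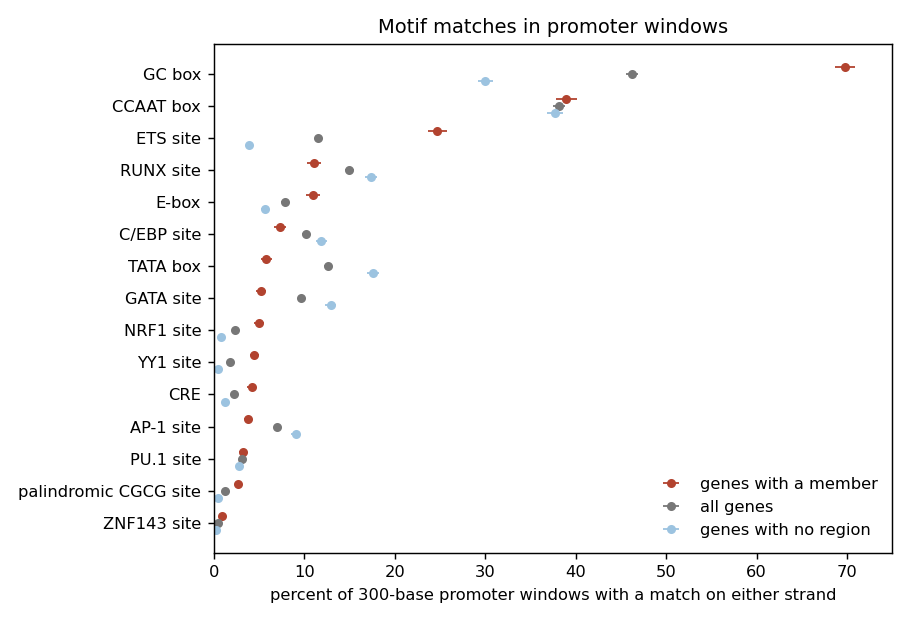
Percent of 300-base promoter windows with a match (horizontal) for 15 motifs (vertical), at genes with a shared, balanced end region (red), over all genes (grey) and at genes with no region (blue). Bars are exact 95% binomial intervals for counting error, and the GC box and the ETS site show the widest gaps. Within CpG-rich windows alone the GC box is level and the RUNX and C/EBP sites turn.

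Long regions were few, with 109 at 5000 bp or more. The longest, 14720 bp, reached the ends of Tyrobp and Hcst, which encode the signalling adaptors DAP12 and DAP10 of myeloid and NK cell receptors, and of Nfkbid, a nuclear inhibitor of the NF-kappaB family; the control-labelled list covered 12946 bp of it in 1 peak and the BN1-labelled list 12061 bp in 3 peaks. The second was the region of Zfp36, described above, which also reached Med29. A region at the 3′ end of Vmp1, an autophagy gene, covered 12729 bp in the control-labelled list and 7440 bp in the BN1-labelled list. Tnrc18 followed with 10575 and 7049 bp, and Tspoap1 with 8296 and 10841 bp. Across all regions, length and the lower of both percentiles had a Spearman's rho of 0.55 (a description over 6153 regions of 2 libraries).

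Some of these regions held microRNA genes. Of 1005 hairpins in RefSeq's table for GRCm38.p6, 57 lay in the 6153 shared, balanced end regions. The 1015 shared end regions longer in control held 9, a similar number per region. End regions of the control-labelled list only (2135) held 5 and those of the BN1-labelled list only (1037) held 2. Away from gene ends, the 2386 shared, balanced regions held 13. The 14528 regions of the control-labelled list only held 17 there. The Vmp1 region held Mir21a, and the Tspoap1 region held Mir142 and Mir142b, the former a microRNA gene of blood cells. Mir191 and Mir425 shared a region of 2373 bp that reached the ends of Impdh2, Ndufaf3 and Dalrd3. It was covered over 2010 bp in the control-labelled list and over its whole length in the BN1-labelled list. Mature products of 4 of these hairpins are printed 5′ to 3′ with the seed, bases 2 to 8, in capitals. None of the 5 shares its seed with another.
mmu-miR-21a-5p: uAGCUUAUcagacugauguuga
mmu-miR-142a-5p: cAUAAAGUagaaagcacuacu
mmu-miR-142a-3p: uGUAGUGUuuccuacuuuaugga
mmu-miR-191-5p: cAACGGAAucccaaaagcagcug
mmu-miR-425-5p: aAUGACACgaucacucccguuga

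The 79 regions at a 3′ end only ranked lower, with median percentiles of 63.5 in the control-labelled list and 50.6 in the BN1-labelled list against 80.1 and 79.0 for those at a start. After Vmp1 the longest lay at Frmd8 (9301 bp in the control-labelled list and 8263 bp in the BN1-labelled list). A region at the 3′ end of Cdkn1b, the cell cycle inhibitor p27, covered 4761 and 4106 bp apart from the region at its start (3668 and 3285 bp). Start sites of noncoding genes, of which the promoter table holds 11588, lay within 1000 bp of 6 of the 79. The Cdkn1b region was among these 6, so it cannot be assigned to the 3′ end of Cdkn1b. The Vmp1 and Frmd8 regions were not among them, though the Vmp1 region held the Mir21a hairpin. A noncoding start missing from the table would not be seen, so these regions are not assigned to a 3′ end either.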

How the data were processed

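H3K27ac ChIP libraries of 1 control and 1 BN1 sample were analysed through the peak list of each; the 2 input libraries of the 4 samples were not analysed here. The submitters' processing notes list MACS3 3.0.1, Bowtie2 2.5.4, deepTools 3.5.1, Picard 3.2.0 and mm10 (GRCm38) without saying what each was used for. Input subtraction, pooling and the calling threshold were not given in the sources used here. The peaks deposited by the authors each carry a summit, a score, its p-value and q-value as −log10 and a fold enrichment, which is a ratio. The lowest deposited −log10 q was 1.32 (control) and 1.30 (BN1). The deposited score was not used.

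Peaks were merged at distance 0 bp, which gave the same 34938 regions as bedtools 2.31.1, and the rule was also tested on simulated regions. Genes (21887 protein-coding, GRCm38.p6), promoters and microRNAs came from RefSeq tables by gene ID. Gene lists held 849 entries, and 846 of 847 listed genes were found. The regions and lists were chosen with earlier results of these data known. Named genes were the 10 strongest in both lists, the 5 longest, the 2 regions on each side of each limit, up to 3 per gene list by the lower percentile, the exceptions of lists with 3 or fewer, and Brd9, Nutm1, Ep300, Crebbp, Smarca4, Kit, Ptprc, Spi1, Myc, Actb and Gapdh; 1 further gene of the rule is not reported here. Other listed genes and all 3′ end and microRNA examples were chosen after their values were seen. Intervals are exact (Clopper-Pearson) at 95% and cover counting error only. Alternatives covered stricter −log10 q minimums, lists of equal length, other windows, limits, merging distances and promoter windows. Python 3.11.15, numpy 2.4.6, pandas 2.3.3, scipy 1.17.1 and matplotlib 3.10.9 were used.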

Additional observations from a re-analysis of the deposited data

How the results depend on the processing

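The number of shared, balanced end regions ran from 4912 to 6926 and of genes with one from 5838 to 7992 over the alternatives. Per whole covered length the direction of the lengths turned, from 64.3% to 10.5% of regions longer in the control-labelled list. The glycolysis list and the monocyte and macrophage list went from below the share of all genes to above it per covered length (44.4% and 40.0% against 32.0%), with windows of 2500 bp and with both other ratio limits, so that 22 in place of 20 of 31 lists lay above it. The share of shared, balanced regions at gene ends (72.1%) was 75.5% and 79.5% at −log10 q minimums of 5 and 10, 74.9% with lists of equal length, 69.8% and 75.8% with windows of 500 and 2500 bp, and 74.6% and 69.9% with ratio limits of 0.67 to 1.5 and of 0.33 to 3. The median length was 1561 bp, 1644 bp and 1567 bp under both minimums and equal lists. The share at a start was 99.1% at the minimum of 10, 98.9% at 500 bp and 97.9% at 2500 bp, and the summit distance 62 bp at the minimum of 10. The machinery lists (82.1%) had 72.0% at the minimum of 10, 78.7% with equal lists, 71.6% and 88.9% with the narrower and wider limits and 75.7% per covered length. CpG-rich windows (80.0%) were 74.9% over the 250 bases before the start and 82.6% where the region held the start. Of 31 single list shares, 6 moved beyond their counting interval at the minimum of 10, 6 with the narrower limits and 6 per covered length, and of 15 motif shares 11 moved over the 250 bases before the start and 1 where the region held the start. No paired analysis was possible because each group had 1 library. The lists hold no counts, so what depth limits could not be measured.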

Other observations

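Gene families taken by symbol prefix, which were picked with results in view, differed widely in how many genes had a shared, balanced end region. Cytosolic ribosomal protein genes (Rpl and Rps) had it in 66 of 85 cases and mitochondrial ones (Mrpl and Mrps) in 59 of 78, WD repeat genes (Wdr) in 45 of 65 and RNA helicases (Ddx and Dhx) in 38 of 53, against 32.8% of all genes. Zinc finger genes named Zfp had it in 167 of 397. Families of restricted expression had almost none: 0 of 1110 olfactory receptors, 1 of 355 vomeronasal receptors (Vmn1r4), 0 of 49 keratins, 0 of 69 protocadherins and 0 of 71 defensins. Most of these genes had no region of either list (1101, 353, 45, 67 and 71 in the same order).

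By chromosome, the share of genes with such a region ran from 26.1% on chromosome 7 to 39.8% on chromosome 12 among the numbered chromosomes. On X it was 19.3% (186 of 966 genes), and on Y it was 0 of 256 genes. No region of either list lay at 681 of the 966 genes on X and at any of the 256 on Y. The same held for 1206 of 2030 genes on chromosome 7 and 316 of 679 on chromosome 12. Having any region thus also differed by chromosome.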
